A study of Mus musculus with 6 samples.

Results

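The high mobility group (HMG) proteins described here are 9 genes of 3 families: HMGB1, HMGB2 and HMGB3, HMGN1 to HMGN4, and HMGA1 and HMGA2. They are 9 of the 11963 genes named by a single symbol on the array, and were read by the 15 probe sets, of 22283, that carry 1 of these names alone. Every one of the 15 was bright enough to be tested. The RNA is labelled as that of C2C12, a line of mouse skeletal muscle precursors; its proliferating myoblasts leave the cell cycle and fuse into myotubes. It was hybridised to HG-U133A, a short-oligonucleotide array built against human transcripts, so gene names are those of the human genes. The species of the RNA was not tested: HMGN4, whose name the mouse RefSeq table gives only as a synonym of a pseudogene, had signals of 1808 to 5422 on its brightest probe set, above the highest unspiked control of every array (252 to 1040). That probe set has the suffix _x_at, which marks probes that can bind other transcripts, and such binding was not tested. The 3 myoblast arrays carry no culture condition in the labels, and the 3 myotube arrays came from cells kept in 2.5% horse serum. No genetic change or other agent is given for either group. The group of myoblast array 3 rests on its description, "Myoblast (1-2) G(1-2)", because its title names only growth. Whether that wording means a repeat or a pool of other myoblast samples is not stated. Separate cultures are not stated for the arrays within a group, so the spread behind each p-value here may be technical.

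HMG proteins are small, abundant chromatin proteins that change the shape of DNA or of nucleosomes without being transcription factors in the strict sense. HMGB proteins carry a pair of HMG boxes that bend DNA, HMGN proteins bind the nucleosome core and counter compaction by linker histone H1, and HMGA proteins grip the minor groove of AT-rich DNA with short AT hooks. HMGA genes are typical of embryonic and dividing cells, HMGA1 has to decline for C2C12 myoblasts to differentiate, and HMGA2 acts in myoblasts through the RNA-binding protein IGF2BP2. HMGB2 is made mainly by proliferating cells, whereas HMGB1 is present in nearly all nuclei and becomes an inflammatory signal when released.

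The promoters of the 3 HMGB genes are shown because each has a start with several CCAAT boxes, the motif bound by NF-Y. That of Hmga2, a gene of another HMG family, is shown as a promoter that holds none. Hmgb1 has 2 annotated starts: the first is shown, and the window of the other held 0 CCAAT. The sequences are those of the mouse genes from RefSeq (GRCm38.p6), taken because mouse is the labelled organism; if the RNA is human they do not apply. They cover the 250 bases before the annotated start on the gene's strand; CCAAT is in capitals. The regions lie at chr5:149053058-149053307 (minus strand) for Hmgb1, chr8:57511593-57511842 (plus) for Hmgb2, chrX:71555667-71555916 (plus) for Hmgb3 and chr10:120476470-120476719 (minus) for Hmga2.
Hmgb1: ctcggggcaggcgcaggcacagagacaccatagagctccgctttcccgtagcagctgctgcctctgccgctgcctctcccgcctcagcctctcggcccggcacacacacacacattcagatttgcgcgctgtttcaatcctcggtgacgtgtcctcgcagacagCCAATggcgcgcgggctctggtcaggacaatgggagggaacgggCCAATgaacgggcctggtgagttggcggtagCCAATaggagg
Hmgb2: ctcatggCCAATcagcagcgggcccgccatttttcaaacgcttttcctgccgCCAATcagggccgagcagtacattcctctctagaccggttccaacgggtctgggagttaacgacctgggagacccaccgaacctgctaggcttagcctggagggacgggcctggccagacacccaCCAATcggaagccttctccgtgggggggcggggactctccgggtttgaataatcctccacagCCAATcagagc
Hmgb3: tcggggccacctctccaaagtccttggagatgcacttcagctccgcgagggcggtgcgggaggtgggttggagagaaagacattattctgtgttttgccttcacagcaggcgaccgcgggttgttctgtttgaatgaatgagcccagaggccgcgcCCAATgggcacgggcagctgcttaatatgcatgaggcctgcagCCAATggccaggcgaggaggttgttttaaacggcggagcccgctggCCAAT
Hmga2: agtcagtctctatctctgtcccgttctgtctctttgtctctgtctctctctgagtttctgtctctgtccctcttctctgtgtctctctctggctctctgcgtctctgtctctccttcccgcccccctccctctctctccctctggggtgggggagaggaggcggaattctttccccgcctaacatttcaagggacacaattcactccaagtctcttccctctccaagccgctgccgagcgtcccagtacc

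Of the 9 genes, 7 had a promoter window in the RefSeq table, and HMGN3 and HMGN4 did not. Counting the first transcribed base as 1, CCAAT began at positions -86, -42 and -11 in Hmgb1, at -243, -198, -73 and -11 in Hmgb2 and at -94, -51 and -5 in Hmgb3. Windows of 300 bases, 50 of them after the start, were searched on both strands. Hmgn1 held 2 matches and Hmgn2 held 1, and the windows of Hmga1, Hmga2 and the other start of Hmgb1 held 0. Among all 32851 such windows, 37.4% held CCAAT and 3.37% held it 3 times or more. TTTGAA, the core of the cell cycle homology region, occurred 2 times in Hmgb2 and 1 time in Hmgb3 (17.9% of all windows). The GC box GGGCGG was in every member window except that of the first Hmgb1 start (35.7% of all windows), and the E box CACGTG in those of Hmgn2 and the other Hmgb1 start (7.15%). No member window held TATAAA (13.6% of all windows) or the E2F-type motifs TTTCGCGC (0.323%) and TTTGGCGC (0.514%). These are matches of letters, and binding was not measured.

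**Figure D1:**
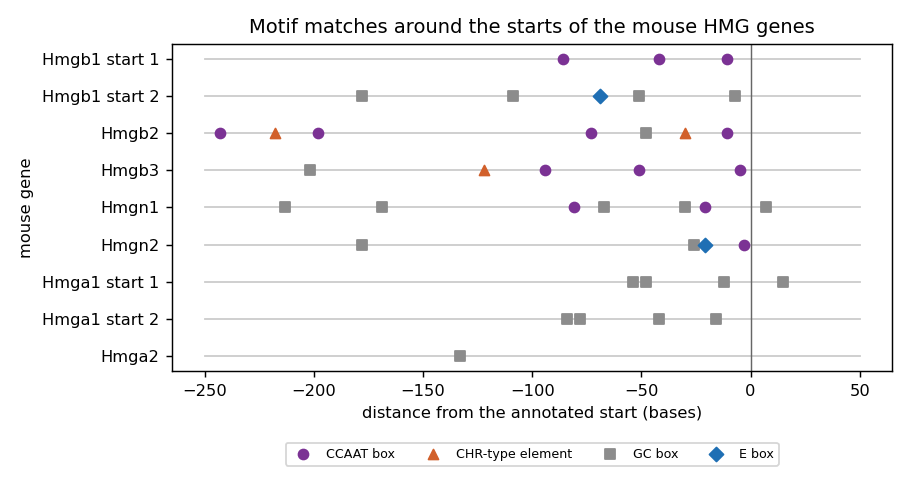
Positions of motif matches in the windows of the 7 mouse HMG genes found in RefSeq, with distance from the annotated start in bases on the horizontal axis and 1 line per start. Each point is the first base of a match; the windows of Hmgb1 start 1, Hmgb2 and Hmgb3 hold 3 to 4 CCAAT boxes, and those of Hmga1 and Hmga2 hold none.

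Values are the deposited MAS5 signals, and changes are myotube minus myoblast on the log2(signal + 197) scale, with the standard error (SE) of limma; folds on this scale understate the change of dim genes. A probe set was called when its limma p-value, adjusted by Benjamini and Hochberg over all 13329 tested probe sets, was under 0.05. Array number limits the precision. Myoblast arrays 2 and 3 correlated at r = 0.988 over the tested probe sets, and the other pairs within a group at 0.872 to 0.889, as a description across probe sets. Between the groups the pairs ran from 0.737 to 0.881, and myoblast array 1 was as close to myotube array 3 (0.881) as to the other myoblast arrays (0.872 and 0.881). Scan day and chip lot follow the groups and cannot be told apart from them. Myoblast array 1 was also of another chip lot than myoblast arrays 2 and 3. The description in each run record holds a code number, and no label used here says what it stands for. Arrays with consecutive codes were taken as 1 series, named laboratory series here. Myoblast array 1 and the 3 myotube arrays form 1 such series and myoblast arrays 2 and 3 another. Only myoblast array 1 can therefore be set against the myotubes once the series is blocked. Within the myoblasts chip lot splits the arrays as the series does, and the blocked comparison still cannot be told apart from lot and scan day. The highest signal of a control probe set with no matching spike lay between 252 and 1040 on the 6 arrays. It is called the control ceiling and serves as the level of background. Ceilings were 326 and 252 in the series of myoblast arrays 2 and 3. In the other series they were 920 for myoblast array 1 and 731, 1040 and 520 for the myotubes. The geometric mean of the spiked controls was also lower in the former, at 3159 and 3843. In the latter it was 41746 for myoblast array 1 and 59593, 27089 and 10162 for the myotubes. The part of this difference in the HMG changes was not tested. In bulk RNA of this kind, fewer cells with a transcript and less transcript per cell cannot be told apart.

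HMG transcripts were lower in myotubes. All 15 probe sets had a negative change, and 10 of them, from 6 genes, passed the test, where 6.40% of all tested probe sets were called lower. None was called higher by limma, where 4.93% of all tested probe sets were, nor did any have an unadjusted p under 0.05 in that direction, against 14 lower at that level. Over all 6 arrays, HMGB2 fell by at least 6.76-fold, a bound because its myotube signals lay within background. The bound takes no account of laboratory series. The probe sets of HMGA1, HMGA2 and HMGB1 fell by 2.34-fold to 4.23-fold. HMGN1 and HMGN3 fell by less, and HMGB3, HMGN2 and HMGN4 did not pass.

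**Figure D2:**
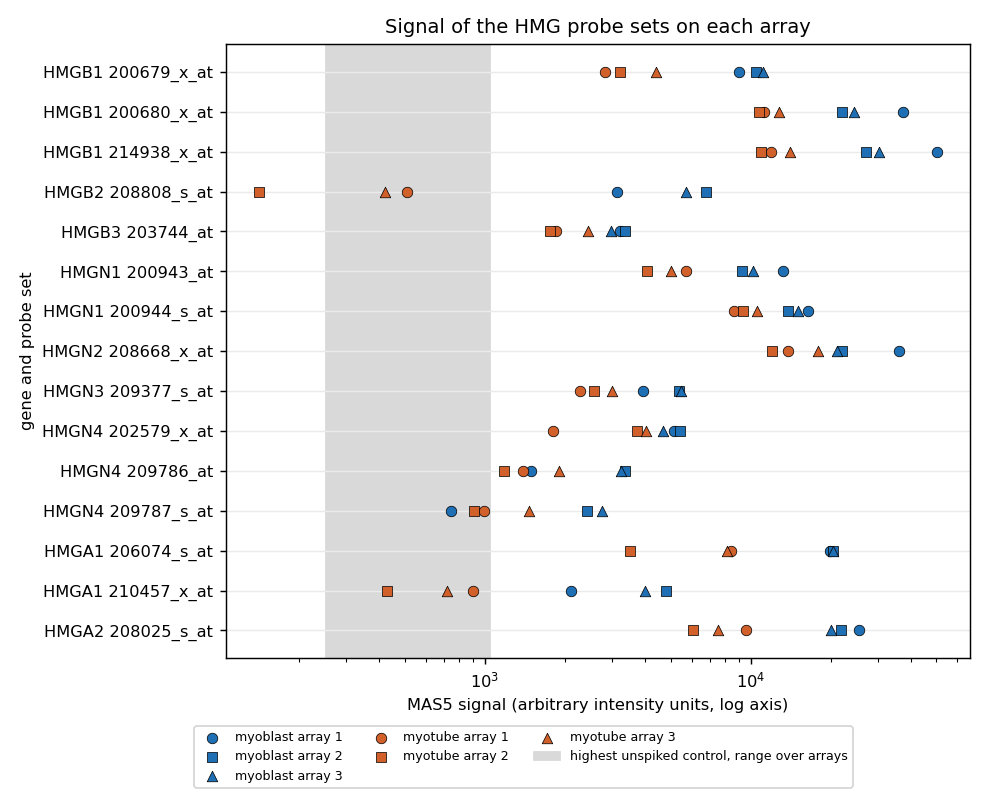
MAS5 signal of each of the 15 HMG probe sets on each of the 6 arrays, on a log axis, with myoblast arrays in blue and myotube arrays in orange; the grey band spans the control ceilings (252 to 1040). The myotube points lie to the left of the myoblast points in 13 of the 15 rows; the 2 exceptions are HMGN4 probe sets.

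HMGB2, the HMGB protein of dividing cells, gave signals of 3150.2, 6807 and 5712 on myoblast arrays 1, 2 and 3 and of 510.5, 142 and 422 on myotube arrays 1, 2 and 3 (208808_s_at). The groups were far apart, and myoblast array 1 was the lowest of its group. The group means were 5223 ± 1877 and 358 ± 193 (SD, n = 3), and the log2 change was -3.29 ± 0.36 SE (limma adjusted p = 0.000742). All 3 myotube signals lay under the control ceiling of their array and so within background. With signals under the ceiling raised to it, a setting added once the data were known, the fall was at least 6.76-fold. Blocked on laboratory series, the change was -2.66 ± 0.42 SE and was called (limma adjusted p = 0.0185); it rests on the same background signals and gives no exact fold.

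HMGB1, the most widely expressed HMGB protein, is read by 3 probe sets, all with the suffix _x_at, which marks probes that can bind other transcripts; HMGB1 also has many processed pseudogenes. The brightest, 214938_x_at, gave 50066, 27127 and 30296 in myoblasts and 11868, 10971 and 14091 in myotubes. The second, 200680_x_at, gave 37276, 22027.5 and 24449 against 11180.4, 10710.5 and 12781.5. In both, myoblast array 1 was the highest of all arrays and the myotube arrays lay close together. The third, 200679_x_at, gave 9061, 10423 and 11139 against 2822, 3230.1 and 4389, and here myoblast array 1 was the lowest of its group. The groups did not overlap in any of the 3. Their changes were -1.48 ± 0.26, -1.22 ± 0.23 and -1.52 ± 0.20, all called (limma adjusted p = 0.00676, 0.0098 and 0.002). Their blocked values were -2.01, -1.68 and -1.35, all still called. Without myotube array 2 the calls of 214938_x_at and 200680_x_at were lost (limma adjusted p = 0.053 and 0.066), and without myotube array 1 that of 200680_x_at.

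HMGB3, which is associated with stem and progenitor cells, gave 3229, 3377 and 2976 in myoblasts and 1857, 1756 and 2447 in myotubes (203744_at). The groups did not overlap, but their gap was narrow. The change of -0.62 ± 0.20 SE did not pass the test (limma adjusted p = 0.0737). Leaving out myotube array 3, the highest of its group, gave a call (limma adjusted p = 0.0425); over the other alternatives the adjusted p reached 0.604.

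The changes of HMGB2 and its relatives were compared within arrays by an exact two-sided permutation test, whose smallest possible p with 3 against 3 arrays is 0.1. Because the myotube signals of HMGB2 lay within background, its differences are given with bounds, from signals raised to the control ceiling. The log2 change of HMGB2 minus that of HMGB1 was -1.81 on the measured signals (pooled SD 0.80, exact p = 0.1), ran from -2.20 to -1.35 with other pseudocounts, and was -1.26 as a bound. Against HMGB3 the difference was -2.67 (pooled SD 0.53, exact p = 0.1), and -2.08 as a bound. Both are at the limit of the design, and over the 3 such comparisons made the adjusted p was 0.15. When blocked on series, the differences were -0.65 and -2.02, with bounds of -0.07 and -1.41 in the first series.

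HMGA1, an AT hook protein of dividing cells, is read by 2 probe sets. The brighter, 206074_s_at, gave 19929, 20394 and 20376 in myoblasts, almost the same value on each array, and 8414, 3516.5 and 8110 in myotubes, with myotube array 2 the lowest. The dimmer, 210457_x_at, gave 2098, 4795 and 3995 against 904, 429 and 721, and its signal on myotube array 2 was under the control ceiling there. The groups did not overlap in either. The changes were -1.67 ± 0.29 and -2.08 ± 0.34 SE, both called (limma adjusted p = 0.0074 and 0.00494). The folds were 3.18 and 4.23, and for the dimmer at least 3.90 by the bound used for HMGB2. When blocked on series, the changes were -1.65 and -1.42 and neither was called (limma adjusted p = 0.0868 and 0.0844; range over the alternatives 0.00105 to 0.0868 and 0.00153 to 0.331).

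HMGA2, the family member of embryonic tissue and of growth control, gave 25624, 21952 and 19986.5 in myoblasts and 9562, 6070.5 and 7546 in myotubes (208025_s_at). Every myoblast signal was more than double the highest myotube signal. The means were 22521 ± 2861 and 7726 ± 1753 (SD, n = 3), a change of -1.54 ± 0.21 SE or 2.90-fold (limma adjusted p = 0.00235). It was the only HMG probe set called in all 20 alternatives run on the probe sets, with limma adjusted p-values from 0.00044 to 0.023, and its change when blocked on series was -1.73. The changes of HMGA1 and HMGA2 differed by -0.13 (pooled SD 0.34, exact permutation p = 0.7, adjusted p = 0.7), a difference smaller than the spread between arrays.

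**Figure D3:**
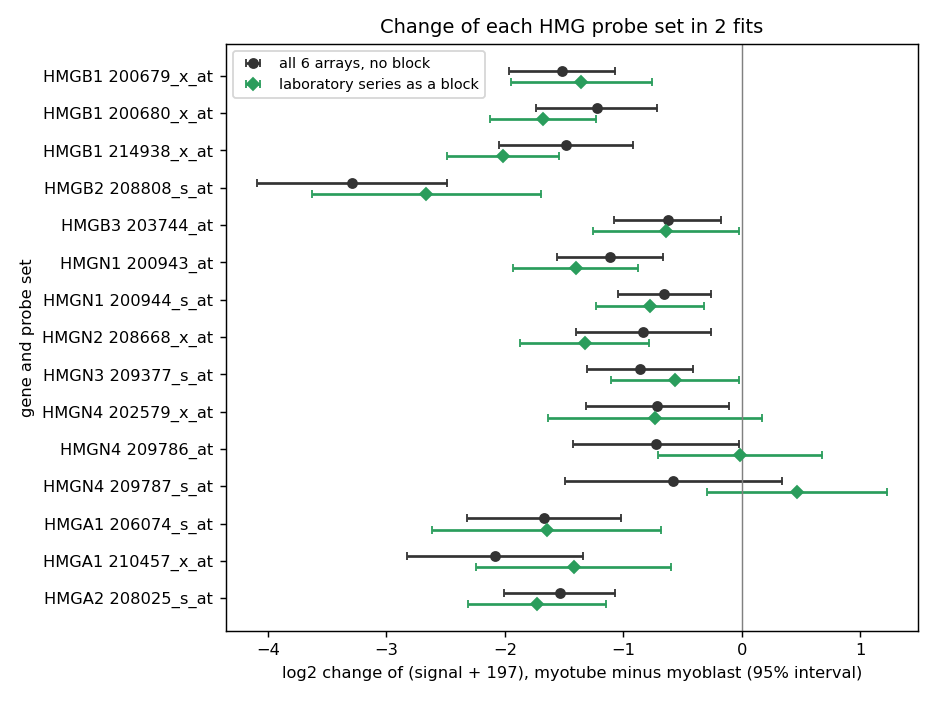
Log2 change of each HMG probe set, myotube minus myoblast, with its 95% interval, for all 6 arrays without a block (black circles) and for the fit blocked on laboratory series (green diamonds). HMGB2, whose myotube signals were within background, lies farthest to the left in both fits, and the HMGN4 probe sets 209786_at and 209787_s_at move to -0.02 and 0.47 with the block.

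HMGN1, a nucleosome-binding protein, is read by 2 probe sets that moved by different amounts. The signals of 200943_at were 13196, 9303 and 10178.5 in myoblasts and 5684.5, 4066 and 4994 in myotubes. Those of 200944_s_at were 16355, 13852 and 15029 against 8634.5, 9361 and 10587. The groups did not overlap in either. The changes were -1.11 ± 0.20 and -0.65 ± 0.18 SE (limma adjusted p = 0.00808 and 0.0403). The second call was lost when blocked on series (limma adjusted p = 0.0875) and without myoblast array 2 or 3 or myotube array 1 or 2 (up to 0.166). The first was lost only without myotube array 2 (limma adjusted p = 0.0502).

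HMGN2, the closest relative of HMGN1, gave 36246, 21962 and 21197 in myoblasts and 13770.3, 11991 and 17842 in myotubes (208668_x_at). The groups did not overlap, and myoblast array 1 stood well above the rest. Its change of -0.83 ± 0.26 SE did not pass (limma adjusted p = 0.0631). Blocked on series, which sets the myotubes against that array, it was -1.33 and was called (limma adjusted p = 0.0281). It was also called after quantile normalization.

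HMGN3, a form of HMGN with a role in thyroid hormone receptor signalling, gave 3938, 5357 and 5469 in myoblasts and 2269.9, 2576 and 2992 in myotubes (209377_s_at). Myoblast array 1 was closest to the myotubes. The change was -0.86 ± 0.20 SE and was called (limma adjusted p = 0.0238), but blocked on series it was -0.57 and was not (limma adjusted p = 0.268). The call was also lost without myoblast array 2 or 3 or myotube array 1 or 2 (limma adjusted p up to 0.131).

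HMGN4 is a retroposed relative of HMGN2 in the human genome; in the mouse RefSeq table its name is only a synonym of a pseudogene, Hmgn2-ps1. Its 3 probe sets were not called. The brightest, 202579_x_at, gave 5159, 5422 and 4657.5 against 1808, 3731 and 4031, a change of -0.71 ± 0.27 SE (limma adjusted p = 0.114). Myotube array 1 was the lowest, and without it the change was -0.37 (limma adjusted p = 0.256). On 209786_at the signals were 1483.5, 3361 and 3261 against 1387, 1181 and 1905, and on 209787_s_at 742, 2419 and 2761 against 988, 912 and 1467. In these 2, and in no other HMG probe set, the groups overlapped: myoblast array 1 lay among the myotube arrays in the first and below them in the second, where it and myotube array 2 were under the control ceiling. Their changes were -0.72 ± 0.32 and -0.58 ± 0.41 SE (limma adjusted p = 0.155 and 0.361), and when blocked on series they were -0.02 and 0.47. Without myoblast array 1 both were called lower (limma adjusted p = 0.0137 and 0.0168).

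The 3 myotube signals lay below all 3 myoblast signals in 13 of the 15 probe sets, as they did in 15.5% of all tested probe sets. The median change of the 15 was -1.11, against 0.09 over all tested probe sets. Changes varied with brightness over the whole array, so the HMG probe sets were set against others of like signal. In the top 5 percent of brightness, where 6 of the 15 lie, the median change was 0.20 and 8.85% were called lower. In the next bin, from 75 to 95 percent, with 4 of the 15, it was -0.17 and 15.2% were called lower. The other 5 lay between 50 and 75 percent, where the median was 0.01 and 7.11% were called lower. By probe set suffix, 4 of the 6 with _x_at, 5 of the 6 with _s_at and 1 of the 3 others were called. At the gene level, with the brightest probe set of each, 6 of 9 HMG genes fell, where 7.11% of 8161 genes were called lower; averaging the probe sets of each gene also gave 6. In the blocked fit 4 of the 9 fell, where 1.36% of genes were called lower and 1.81% higher.

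**Figure D4:**
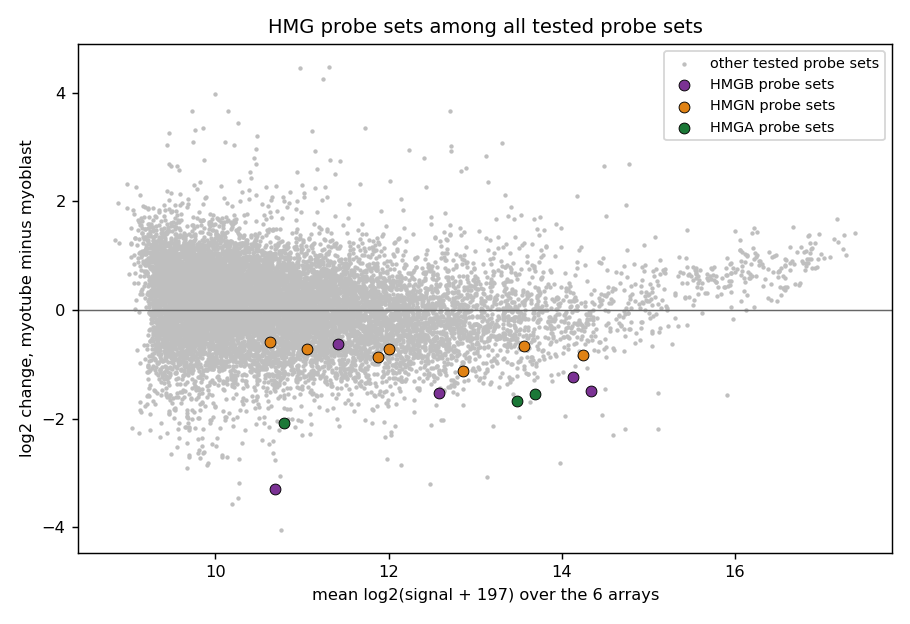
Log2 change, myotube minus myoblast, against mean log2(signal + 197) over the 6 arrays for all 13329 tested probe sets (grey) and the 15 HMG probe sets coloured by family. Every HMG point lies below 0, from -0.58 to -3.29, across the brighter range of the array.

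Blocked on laboratory series, 7 of the 15 probe sets were called lower, where 0.998% of all tested probe sets were: all 3 of HMGB1, HMGB2, HMGN1 (200943_at), HMGN2 and HMGA2. Their median change was -1.35 over the 15, against 0.00 over all tested probe sets, and 14 of 15 changes were negative. Within the first series alone, where the spread of the single myoblast array is taken to be that of the myotubes, 5 were called (0.435% of all tested probe sets). These were 200680_x_at and 214938_x_at of HMGB1, 200943_at of HMGN1, HMGN2 and HMGA2; HMGB2 was not among them (limma adjusted p = 0.07, against 0.000149 to 0.0185 in its other alternatives). Leaving out myotube array 2 also left 5, both probe sets of HMGA1, HMGA2, HMGB2 and 200679_x_at of HMGB1.

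Related genes were read by their brightest probe sets and adjusted over the 8161 tested genes. They stand beside the 9 HMG genes, with 6 falls and a median of -0.86. Over all tested genes the median was 0.12, with 5.88% called higher and 7.11% lower. In the fit blocked on series 1.81% of genes were called higher and 1.36% lower. Of 22 tested genes of other HMG box proteins 1 rose and 2 fell (median 0.23), close to the unblocked shares over all genes. HBP1, an HMG box repressor of cell cycle entry, rose by 1.24 ± 0.26 SE (limma adjusted p = 0.015). TOX, a thymocyte factor, and SSRP1, the HMG box subunit of the histone chaperone FACT, fell. Their changes were -1.34 ± 0.35 and -0.72 ± 0.19 SE (limma adjusted p = 0.0333 and 0.0357). The TOX signals on myotube arrays 1 and 2 lay under the control ceiling. When blocked on series, the median was -0.08 and 0 of the 22 were called by limma. An unadjusted p under 0.05 was found for 5 of them, and for 1497 of the 8161 tested genes.

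Of 3 tested linker histones, which compete with HMG proteins on nucleosomes, H1-2 rose by 1.49 ± 0.31 SE (limma adjusted p = 0.0129, and 0.17 when blocked on series). The list median was 0.66, and -0.63 when blocked. Of 12 tested nucleosome chaperones 1 fell and 0 rose (median -0.55), where 7.11% of all tested genes were called lower. At an unadjusted limma p under 0.05, 6 were lower and 0 higher, where 1263 and 1361 of the 8161 tested genes were. The called gene was NASP, which binds histone H1 and H3, with a change of -2.70 ± 0.34 SE (limma adjusted p = 0.00142). Its 3 myotube signals lay under the control ceiling. When blocked on series NPM1 and CHAF1A were called lower too (limma adjusted p = 0.0202 and 0.0418), which makes 3, where 1.36% of genes were called lower. Of 5 tested genes of the SET complex, which contains HMGB2, 1 fell: NME1, a nucleoside diphosphate kinase, with a change of -0.85 ± 0.17 SE (limma adjusted p = 0.0108) and a list median of -0.50. NASP and NME1 were also called when blocked (limma adjusted p = 0.0201 and 0.0418).

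Among 6 tested genes of the let-7 and IGF2 axis of HMGA2, 3 fell (median -0.66). IGF2BP2, the RNA-binding partner of HMGA2 in myoblasts, gave 5207, 6012 and 6157 in myoblasts and 2339, 2793 and 3231 in myotubes, with no overlap. Its change was -1.01 ± 0.18 SE (limma adjusted p = 0.00722). IGF2BP3 and the cyclin CCNA2 fell too, with changes of -1.15 ± 0.28 and -1.52 ± 0.36 SE (limma adjusted p = 0.0262 and 0.0223). When blocked on series, 0 of the 6 were called by limma. An unadjusted p under 0.05 was found for 1 of them, and for 1497 of the 8161 tested genes. The blocked changes of IGF2BP2, IGF2BP3 and CCNA2 were -0.87, -0.75 and -0.98. Of 4 tested receptors and ligands of secreted HMGB1, CXCL12 and its receptor CXCR4 rose, by 1.07 ± 0.28 and 1.08 ± 0.32 SE (limma adjusted p = 0.0347 and 0.0498, and 0.251 and 0.295 when blocked on series). The list median was 0.67.

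Genes of proliferation, given as a reference, had the lowest median of the lists, -1.77. Of the 12, 9 were called lower, where 7.11% of all tested genes were. When blocked on series 5 were, where 1.36% of genes were called lower. The 3 not called were MKI67, BIRC5 and MCM3, with changes of -0.38 ± 0.23, -0.40 ± 0.25 and -0.55 ± 0.18 SE (limma adjusted p = 0.273, 0.291 and 0.0728). The changes of RRM2, which supplies deoxynucleotides, of TYMS, the thymidylate synthase, and of the mitotic cyclin CCNB1 were -2.84 ± 0.20, -1.88 ± 0.17 and -2.29 ± 0.22 SE (limma adjusted p = 9.12e-05, 0.000275 and 0.000342). The part of proliferation in the HMG changes was not tested.

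**Figure D5:**
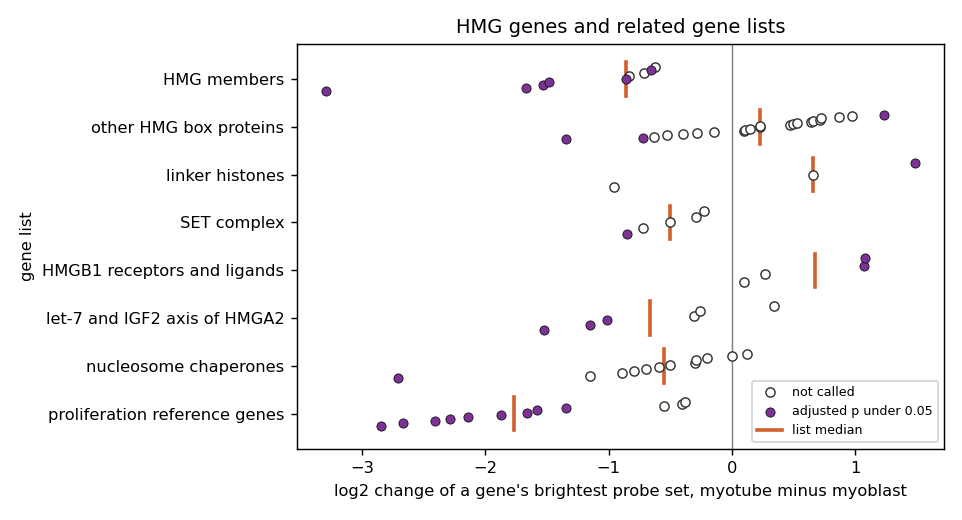
Log2 change of the brightest probe set of each tested gene, myotube minus myoblast, by list; filled points have a limma adjusted p under 0.05 and orange bars are list medians. The HMG genes have a median of -0.86 and the proliferation genes of -1.77, and the other HMG box genes lie on both sides of 0 with a median of 0.23.

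In each family, the member whose brightest probe set had the smallest adjusted p was set against 8142 other genes by Pearson's r of log2 values over the 6 arrays, as a description; all of these genes share the arrays and the group difference. Closest to HMGB2 were CTPS1, the CTP synthase, ELOVL6, a fatty acid elongase, and GGH, a folate hydrolase, with r of 0.999, 0.999 and 0.997. The 3 myotube signals of HMGB2 behind these r lay within background. Closest to HMGN3 were PHLDA2, C1QBP and the lysyl-tRNA synthetase KARS1, at 0.999, 0.998 and 0.998. Closest to HMGA2 were SMTN, the lamin LMNB2 and the telomere protein TERF2IP, at 0.996, 0.996 and 0.992.

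As a check of the labels, 8 of 9 tested myotube markers rose and none fell, and the summed signal of the 11 on the array was 1436 to 5298 in myoblasts and 22956 to 24379 in myotubes. MYOD1 and MYF5, which define myoblasts, were at or under the control ceiling on 5 and 6 of the 6 arrays, and so were the myotube genes MYOG and CKM on all 6. Of the 6 myoblast markers 3 were tested, DES, CDH15 and NCAM1, and none was called (median 0.42). CDH15 was above the ceiling on all 6 arrays, with a change of 0.80 ± 0.27 SE (limma adjusted p = 0.0799). The summed signal of the 6 was 1730 to 4937 in myoblasts and 4000 to 5418 in myotubes. Of 7 fibroblast markers 6 rose, and their summed signal was 71801 to 138760 in myoblasts and 214620 to 326117 in myotubes; the part of such cells in the HMG changes was not tested. Of the macrophage, endothelial and adipocyte markers, 1 of each list was bright enough to test, AIF1, PECAM1 and LPL, and none was called. Their changes were 0.22 ± 0.48, 0.84 ± 0.35 and 0.25 ± 0.37 SE (limma adjusted p = 0.766, 0.131 and 0.661). They were at or under the control ceiling on 3, 1 and 3 of the 6 arrays. PTPRC, CD14, CDH5, ADIPOQ and PLIN1 were so on all 6, VWF and TEK on 5, and CSF1R and FABP4 on 4. The summed signals of the macrophage, endothelial and adipocyte lists were 622 to 1104, 893 to 1821 and 1098 to 1681 in myoblasts. In myotubes they were 1122 to 2240, 1798 to 3725 and 1206 to 1964.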

How the data were processed

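Total RNA of 6 arrays, 3 labelled myoblast and 3 myotube, was read on HG-U133A. The authors deposited MAS5 signals, an intensity on a linear scale, per the submitters' processing notes (no MAS5 version is given in the sources). Run records deposited as text (other) gave chip lot, scan day and, in the description, the code number behind the laboratory series. No detection calls were used. Left out were 68 control probe sets of 22283 and those whose mean signal was under the 40th percentile; 13329 stayed. The pseudocount of 197 is the 25th percentile of the table. Groups were compared with limma 3.58.1 in R 4.3.3 with statmod 1.5.0 (two-sided; lmFit, then eBayes with an intensity trend) and Benjamini-Hochberg adjustment at 0.05, after the script was tested on simulated data. A platform annotation of 2016 gave 19065 probe sets 1 symbol, 1043 several and 2107 none; its linker histone symbols were updated by hand. Of companion lists, up to 3 called genes per direction with the smallest adjusted p were named. Members, lists, tests and alternatives were chosen with earlier results of these data known. Alternatives were the pseudocount, filter, scaling, eBayes settings, replicate number, laboratory series or chip lot as a block, myoblast arrays 2 and 3 averaged, averaged probe sets per gene, and leaving out each array; the replicate numbers of the run records and the bounds at the control level were added after seeing the data. No label says that the replicate numbers pair the arrays, so they were not taken to pair them. Same-numbered arrays deviated from their group means with correlations of 0.25, -0.18 and 0.38, which cannot decide the question. Figures were drawn with matplotlib 3.10.9.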

Additional observations from a re-analysis of the deposited data

How the results depend on the processing

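No HMG probe set was called higher under any alternative. Of the 15, 10 were called lower with all arrays (6.40% of all tested probe sets), and over the alternatives the number ran from 5 to 12. Leaving out 1 array at a time also gave 5 to 12. It was 5 without myotube array 2, where 2.03% of all tested probe sets were called lower. It was 12 without myoblast array 1, where 12.5% were, so the share over the whole array moved as well. With the replicate block the number was 11 (9.42% of all tested probe sets). With the block on the run record numbers, which differ from the titles on the myoblast arrays, it was 8 (2.18%). No label says that the numbers pair the arrays, so these blocks have no basis in the labels. Of the 6 arrays 3 deviated most like the array of the same number in the other group. That count cannot decide whether they are pairs, because the deviations also carry the laboratory series. The change of 209787_s_at of HMGN4 turned to 0.47 with the laboratory series block and in the first series alone. The difference between HMGB2 and HMGB1 shrank to -0.65 in both of these settings and that between HMGB2 and HMGB3 to -2.02. With signals raised to the control ceiling, added after seeing the data, the difference from HMGB3 was -2.08; in the first series alone the raised values were -0.069 against HMGB1, -1.41 against HMGB3 and 0.073 for HMGA1 against HMGA2. Leaving out 1 array gave -2.39 to -1.42 and -2.99 to -2.43. The difference between HMGA1 and HMGA2 turned to 0.081 in the same 2 settings, and leaving out 1 array gave -0.32 to 0.11, with the positive value without myotube array 2. All settings on the series rest on myoblast array 1. If myoblast arrays 2 and 3 are repeats of 1 sample, both the main and the blocked p-values could be understated. With those 2 arrays averaged, 8 of the 15 probe sets were called lower (2.31% of all tested probe sets). Dim signals, those of HMGB2 in myotubes above all, limit the folds, which are bounds at background.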

Other observations

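Names close to those of the 9 genes are also on the array. HMGB3P1, a pseudogene of HMGB3, gave 1294, 612 and 730 in myoblasts and 894, 1280.2 and 535 in myotubes, with a change of 0.03 ± 0.37 SE (limma adjusted p = 0.969). Its groups overlapped throughout. The 2 probe sets of HMGN5, an X-linked HMGN protein with a long acidic tail, were under the control ceiling of all 6 arrays and were too dim to test; 221238_at gave 144.5, 163.5 and 119 in myoblasts and 305.5, 618 and 192 in myotubes.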
